A study of Bos taurus with 18 samples.

Results

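The genes described are the MCM helicase subunits MCM2 to MCM7, the sliding clamp PCNA and its partner PCLAF, and the nucleotide enzymes RRM2 and TYMS. Every probe set that carries 1 of these 10 symbols in the platform's annotation was taken. No probe set carries the symbol MCM2, so 9 of the 10 genes were measured, by 12 of the 24016 probe sets tested. Across the series 9155 genes have a probe set with 1 symbol. The NCBI gene IDs are 281302 for MCM3, 504367 for MCM4, 506970 for MCM5, 517812 for MCM6, 539924 for MCM7, 515499 for PCNA, 540737 for PCLAF, 508167 for RRM2 and 507631 for TYMS.

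RNA from the preovulatory follicle of 6 cows (Bos taurus) was hybridized to Affymetrix arrays. The single dominant follicle of a cow was divided into 3 cell populations: granulosa still attached to the follicle wall (membrane granulosa), granulosa aspirated with the follicular fluid (antral granulosa) and theca. Follicles of cows A, B and C were collected 22 h after GnRH given to induce the surge of luteinizing hormone (LH), and those of cows D, F and G before the surge. That makes 18 arrays in 6 groups of 3 cows. The series' design counts the 22 h from GnRH, whereas a sample protocol counts it from the surge. Breed, age and genotype of the cows are not given in the sources used here, and all groups come from dominant follicles, so no other stage of follicle serves as a control. The LH comparison sets different cows against each other, while the 3 populations of a follicle share a cow.

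DNA is copied once per cell division. MCM2 to MCM7 form the ring that is loaded at replication origins in G1 and unwinds the helix in S phase. PCNA holds the polymerases on the template, PCLAF binds PCNA, RRM2 is the cell-cycle regulated subunit of ribonucleotide reductase, and TYMS makes thymidylate. Genes of this kind are transcribed together late in G1 and in S phase, largely under E2F factors. Granulosa cells of a growing follicle divide, and after the LH surge they leave the cell cycle and luteinize.

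Values are log2 signals, so a difference of 1 is 2-fold. Where a gene has several probe sets the one with the highest mean over all arrays stands for it, and levels of different genes are not compared because probe sets differ in efficiency. Changes are given ± standard error with n = 3 cows per group, from a spread that limma shares over all 6 groups. The p-values come from limma too, adjusted by Benjamini-Hochberg across the 24016 probe sets. A gene is said to rise or fall, or to be higher or lower, where this adjusted p is under 0.05. All arrays of 8 of the 9 genes lay above 4.62, which is taken as a limit because 8005 probe sets have a mean signal below it, and the highest value of any of the 9 was 11.39. The exception was PCLAF, below the limit on 1 array.

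The labelled populations were checked on their markers. INSL3, a hormone of theca cells, lay between 13.95 and 14.84 on the theca arrays and between 9.28 and 11.08 on the antral granulosa arrays. On membrane granulosa arrays it lay between 10.87 and 14.04, so it did not fully separate them from theca. CYP17A1, another theca marker, was 10.42, 4.9 and 8.84 in membrane granulosa of cows D, F and G before LH. In theca of the same cows it was 12.67, 10.48 and 12.11. CYP19A1, the aromatase of granulosa, lay between 3.70 and 5.29 on the granulosa arrays after LH, against 13.59 to 13.92 in membrane and 11.97 to 13.18 in antral granulosa before LH. The theca arrays were a mixture, with MYH11 of smooth muscle between 9.76 and 12.47 and CDH5 of endothelium between 7.71 and 8.42. CYP19A1 on theca arrays before LH was 10.85 in cow D, 11.82 in cow F and 8.21 in cow G, against 3.91 to 4.08 on theca arrays after LH. In membrane granulosa after LH, cow C stood apart. Its 8 measured theca markers summed to a linear signal of 37100, where cow A had 10500 and cow B 12400, and its 8 fibroblast markers to 21600, against 7860 and 8450. Its 12 granulosa markers summed to 35200, against 45600 and 47000. Changes in membrane granulosa and differences from it are therefore also given without cow C. On membrane granulosa arrays before LH the theca markers summed to 43000 in cow D, 18200 in cow F and 39100 in cow G. In whole populations such as these, fewer cells in S phase and less RNA per cell cannot be told apart.

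After LH the replication genes were lower in both granulosa populations, and no such fall was called in theca. In membrane granulosa 7 of the 9 genes fell and in antral granulosa 8, while in theca 0 passed the test. The background shares were 10.9% of all probe sets falling in membrane granulosa, 12.2% falling in antral granulosa and 3.92% changing either way in theca. The median change of the 9 genes was -1.43 in membrane granulosa, -1.99 in antral granulosa and -0.24 in theca, where all probe sets had medians of -0.05, -0.01 and 0. The 3 arrays after LH lay wholly below the 3 before LH for 8 genes in each granulosa population. Such a gap downwards was found for 19.7% of all probe sets in membrane and 19.4% in antral granulosa. Without cow C the same 7 genes fell in membrane granulosa, with changes of -2.22 for MCM3, -1.87 for MCM4, -1.36 for MCM5, -1.66 for PCNA, -4.09 for PCLAF, -2.16 for RRM2 and -1.46 for TYMS, each further from 0 than with it. In theca the groups overlapped for all 9 genes, and 20.4% of all probe sets there had groups without overlap, in either direction.

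Some cell type markers moved with LH in the granulosa populations too. Their counts stand against 10.9% of all probe sets falling and 10% rising in membrane granulosa, and 12.2% falling and 10.3% rising in antral granulosa. Of 12 granulosa markers 9 fell and 1 rose in membrane granulosa, with sums of 35200 to 47000 after LH, against 111000 to 122000 before, and 8 fell and 1 rose in antral granulosa, with 37100 to 41500 after LH, against 99800 to 106000 before. Of 8 fibroblast markers 2 rose in membrane granulosa (7860 to 21600 after LH, against 2720 to 9130 before) and 5 rose in antral granulosa (2030 to 4330 after LH, against 652 to 688 before). Of 8 theca markers 3 fell in each, with sums of 10500 to 37100 after LH, against 18200 to 43000 before, in membrane granulosa and 4360 to 19500 after LH, against 13200 to 21400 before, in antral granulosa. Of 9 endothelial markers 1 rose in each, near the share of all probe sets (394 to 592 after LH, against 196 to 363 before, in membrane and 275 to 399 after LH, against 182 to 189 before, in antral granulosa). Of 7 leukocyte markers 1 rose in membrane granulosa (392 to 641 after LH, against 456 to 531 before). In antral granulosa 0 of these 7 were called (471 to 535 after LH, against 348 to 953 before). Of 8 smooth muscle markers 0 were called in membrane (1280 to 3550 after LH, against 1210 to 2930 before) and 2 rose in antral granulosa (494 to 972 after LH, against 493 to 569 before). The part of these cell types in the fall of the replication genes was not tested.

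**Figure D1:**
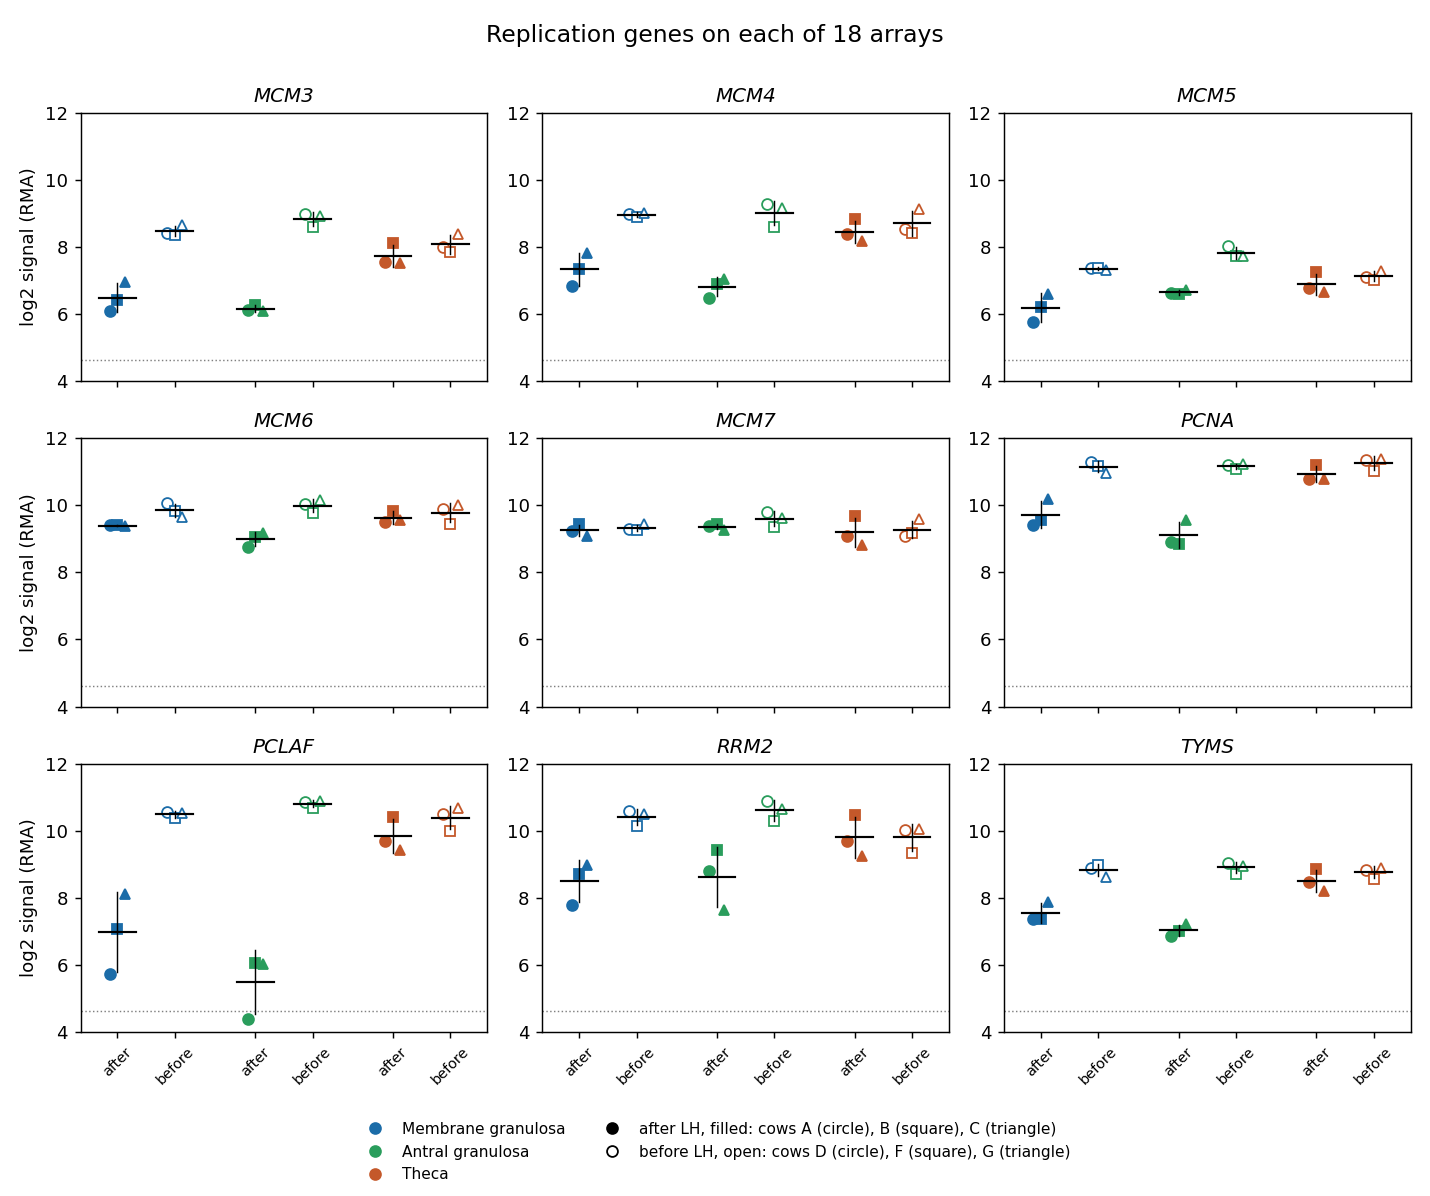
Log2 signal of the 9 genes on all 18 arrays, 1 panel per gene; in each population the 3 arrays after LH stand left of the 3 before LH, points are cows, the bar is the group mean, the line its SD, and the dotted line the limit of 4.62. In both granulosa populations the points after LH lie below those before LH for 8 of 9 genes, MCM7 being the exception, and in theca they overlap for every gene.

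Among the helicase subunits, MCM3 changed most. In membrane granulosa MCM3 read 6.10, 6.42 and 6.95 in cows A, B and C after LH, against 8.41, 8.37 and 8.66 in cows D, F and G before LH. In antral granulosa it read 6.13, 6.27 and 6.09 after LH, against 8.98, 8.60 and 8.92 before. In theca it read 7.56, 8.11 and 7.52 after LH, against 8.01, 7.84 and 8.39 before. The granulosa groups were thus well separated and the theca groups overlapped. MCM3 fell by 1.99 ± 0.21 in membrane (adjusted p = 6.54e-06) and fell by 2.67 ± 0.21 in antral granulosa (adjusted p = 2.8e-07), with -0.35 ± 0.21 in theca (95% interval -0.81 to 0.10). A second MCM3 probe set lay between 4.48 and 5.37 on all arrays, near the limit, and differed between times by 0.01, 0.08 and -0.02 in membrane granulosa, antral granulosa and theca.

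MCM4, another subunit of the ring, followed the same order of groups. It read 6.84, 7.34 and 7.81 in membrane granulosa after LH, against 8.98, 8.89 and 9.02 before, and 6.49, 6.90 and 7.04 in antral granulosa after LH, against 9.27, 8.60 and 9.17 before. In theca MCM4 read 8.38, 8.82 and 8.18 after LH, against 8.55, 8.43 and 9.14 before. MCM4 fell by 1.63 ± 0.26 in membrane (adjusted p = 0.00028) and fell by 2.21 ± 0.26 in antral granulosa (adjusted p = 1.29e-05). Its change in theca was -0.24 ± 0.26, with an interval of -0.80 to 0.31.

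MCM5 fell by similar amounts in the 2 granulosa populations. It read 5.76, 6.21 and 6.61 in membrane granulosa after LH, against 7.36, 7.38 and 7.30 before, and 6.63, 6.59 and 6.73 in antral granulosa after LH, against 8.03, 7.72 and 7.73 before. MCM5 fell by 1.15 ± 0.19 in membrane (adjusted p = 0.000343) and fell by 1.18 ± 0.19 in antral granulosa (adjusted p = 0.000248). In theca the arrays after LH read 6.78, 7.25 and 6.65, against 7.09, 7.02 and 7.29 before, a change of -0.24 ± 0.19 (interval -0.64 to 0.16).

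MCM6 moved less. In membrane granulosa it read 9.41, 9.40 and 9.37 after LH, against 10.06, 9.83 and 9.65 before. The groups did not overlap, yet the change of -0.46 ± 0.17 missed the threshold (adjusted p = 0.0662), and it passed after quantile normalization (-0.50, adjusted p = 0.0299) or centring of the arrays (-0.49, adjusted p = 0.0475). In antral granulosa MCM6 read 8.76, 9.05 and 9.18 after LH, against 10.05, 9.77 and 10.15 before, a change of -0.99 ± 0.17 (adjusted p = 0.000371). On theca arrays MCM6 was 9.49, 9.84 and 9.57 after LH, against 9.88, 9.45 and 10 before (-0.14 ± 0.17). A second, dimmer MCM6 probe set gave -0.40 in membrane (adjusted p = 0.408) and -0.95 in antral granulosa (adjusted p = 0.034), so both probe sets were called in antral and neither in membrane granulosa.

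MCM7 was the subunit for which no change was called anywhere. It read 9.24, 9.43 and 9.08 in membrane granulosa after LH, against 9.30, 9.26 and 9.43 before, and 9.39, 9.44 and 9.27 in antral granulosa after LH, against 9.81, 9.36 and 9.63 before. In theca it read 9.08, 9.68 and 8.83 after LH, against 9.09, 9.16 and 9.58 before. The groups overlapped in all 3 populations. The change was -0.08 ± 0.19 in membrane granulosa (interval -0.49 to 0.33), -0.23 ± 0.19 in antral granulosa (-0.64 to 0.18) and -0.08 ± 0.19 in theca (-0.49 to 0.33), so a fall as large as that of MCM5 lies outside both granulosa intervals.

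PCNA, the clamp, read 9.42, 9.56 and 10.18 in membrane granulosa after LH, against 11.29, 11.17 and 10.97 before. In antral granulosa it read 8.91, 8.86 and 9.56 after LH, against 11.19, 11.08 and 11.23 before. Theca arrays read 10.79, 11.20 and 10.78 after LH, against 11.36, 11.02 and 11.39 before. Before LH the 9 arrays lay within a narrow band from 10.97 to 11.39, and after LH the granulosa arrays lay furthest below it, at 8.86 to 10.18, with theca at 10.78 to 11.20. PCNA fell by 1.43 ± 0.21 in membrane (adjusted p = 0.000154) and fell by 2.06 ± 0.21 in antral granulosa (adjusted p = 3.35e-06), with a change of -0.33 ± 0.21 in theca (interval -0.79 to 0.12).

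PCLAF, which binds PCNA at the fork, had the largest changes of the 9 genes. It read 5.74, 7.07 and 8.12 in membrane granulosa of cows A, B and C after LH, against 10.57, 10.37 and 10.53 before. In antral granulosa it read 4.40, 6.06 and 6.03 after LH, against 10.85, 10.68 and 10.87 before, and 4.40 is the 1 value below the limit. In theca it read 9.70, 10.41 and 9.41 after LH, against 10.49, 10 and 10.67 before. The arrays before LH had an SD of at most 0.349 in each population, while those after LH in granulosa were widely spread (SD 1.19 in membrane and 0.949 in antral granulosa, n = 3 each). PCLAF fell by 3.52 ± 0.49 in membrane granulosa, an 11.4-fold difference (adjusted p = 8.73e-05), and fell by 5.30 ± 0.49 in antral granulosa, a 39.5-fold difference (adjusted p = 1.16e-06). With the array of cow A set at the limit the antral change is -5.23, a 37.5-fold difference. Of 24016 probe sets its change as fitted ranked 62 from the lowest in membrane and 13 from the lowest in antral granulosa. In theca it was -0.54 ± 0.49, with a wide interval of -1.60 to 0.51. The interval uses the spread shared by all 6 groups, and the SDs in theca were 0.516 after and 0.349 before LH.

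RRM2 supplies deoxyribonucleotides. It read 7.78, 8.72 and 8.98 in membrane granulosa after LH, against 10.59, 10.14 and 10.50 before, and 8.79, 9.42 and 7.64 in antral granulosa after LH, against 10.89, 10.28 and 10.65 before. Cow C was thus the highest of the 3 after LH in membrane and the lowest in antral granulosa. RRM2 fell by 1.92 ± 0.42 in membrane (adjusted p = 0.00338) and fell by 1.99 ± 0.42 in antral granulosa (adjusted p = 0.00234). In theca it read 9.69, 10.47 and 9.26 after LH, against 10.01, 9.34 and 10.05 before, a difference of 0.01 ± 0.42 with an interval of -0.88 to 0.89.

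TYMS, the source of thymidylate, read 7.37, 7.37 and 7.88 in membrane granulosa after LH, against 8.90, 8.98 and 8.63 before. In antral granulosa it read 6.86, 7.01 and 7.21 after LH, against 9.05, 8.72 and 8.96 before. On theca arrays TYMS was 8.46, 8.86 and 8.21 after LH, against 8.83, 8.55 and 8.90 before. The granulosa groups did not overlap, and those of theca did. TYMS fell by 1.29 ± 0.19 in membrane (adjusted p = 0.000107) and fell by 1.88 ± 0.19 in antral granulosa (adjusted p = 2.04e-06). The change in theca was -0.24 ± 0.19 (interval -0.64 to 0.15). A second TYMS probe set lay below 4.62 on all 18 arrays and gives no value.

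**Figure D2:**
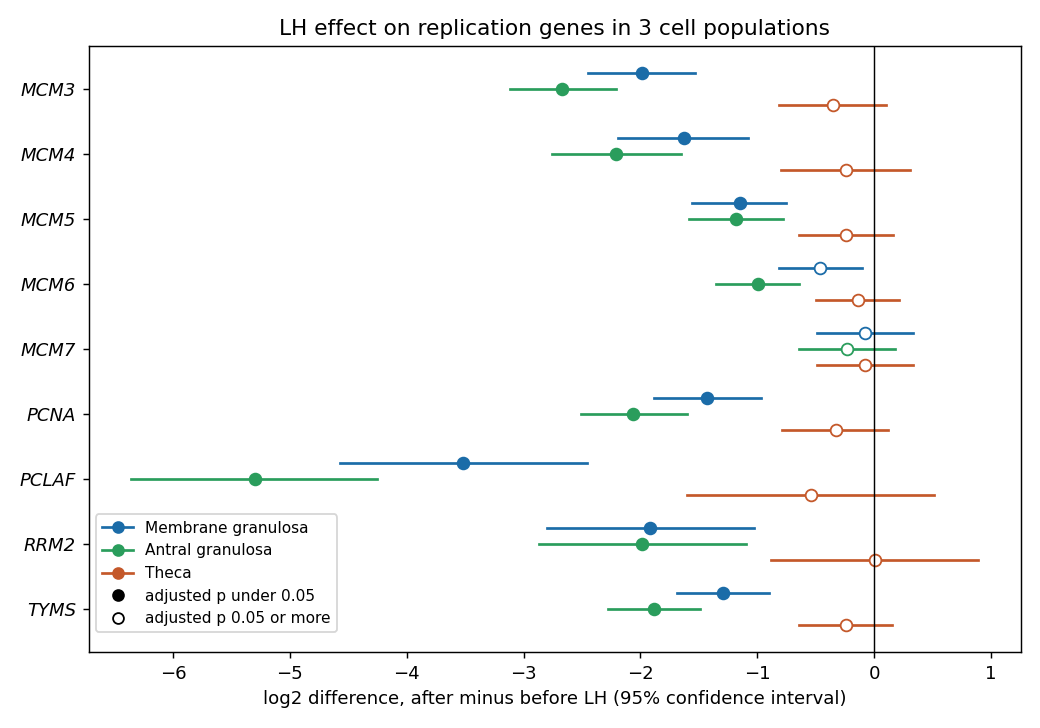
LH change of each gene, as log2 after minus before LH, in the 3 populations; points are limma estimates, lines 95% confidence intervals, and filled points have an adjusted p under 0.05. Intervals of 7 genes in membrane and 8 in antral granulosa are called and lie left of 0, and every theca interval includes 0.

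For none of the 9 genes was a change called in theca. At an unadjusted p under 0.05 limma gave 0 as well, against 15.4% of all probe sets in theca. Adjusted p there was between 0.489 (MCM3) and 0.997 (RRM2). The change was below 0 for 8 of the 9 genes, with RRM2 at 0.01. The intervals do not exclude falls: they reach -0.79 for PCNA and -1.60 for PCLAF. Across all alternatives tried, each cow left out included, the count of called genes in theca remained 0. Markers of the other cell types on the theca arrays were read beside these values, where 2.12% of all probe sets fell and 1.79% rose. Of 9 measured endothelial markers 1 rose, and their summed linear signal was 2260 to 4030 after LH, against 2400 to 4010 before. Smooth muscle markers summed to 11000 to 19600 after LH, against 19000 to 31800 before, and fibroblast markers to 39200 to 49400, against 29200 to 40300. Of 12 granulosa markers 4 fell and 1 rose in theca, with sums of 21700 to 23800 after LH, against 33000 to 54900 before. Theca before LH thus carried more granulosa marker signal than theca after LH, and the part of this in the theca values of the replication genes was not tested.

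Whether the LH change itself differed between populations was tested with the cow as a block. The test sets population differences in cows A, B and C against those in cows D, F and G. The LH change in theca minus that in membrane granulosa was above 0 and passed the test for 7 genes, against 4.56% of all probe sets. PCLAF differed by 2.97 ± 0.50 (adjusted p = 0.00296), RRM2 by 1.92 ± 0.46 (adjusted p = 0.0198), MCM3 by 1.64 ± 0.26 (adjusted p = 0.00214) and MCM4 by 1.39 ± 0.30 (adjusted p = 0.0119). PCNA (1.10 ± 0.27), TYMS (1.05 ± 0.27) and MCM5 (0.92 ± 0.26) also passed, MCM5 barely so at an adjusted p of 0.0497. MCM6 (0.31, adjusted p = 0.441) and MCM7 (0.00, adjusted p = 0.997) did not. This count depended on single cows: it was 2 without cow A, B or F, where PCLAF and MCM3 remained, and 3 without cow D. Without the cow as a block it was 4. Without cow C all 7 genes remained, with PCLAF at 3.76, RRM2 at 2.44, MCM3 at 1.97, MCM4 at 1.77, PCNA at 1.40, TYMS at 1.37 and MCM5 at 1.25.

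Against antral granulosa the difference was clearer, with 8 genes above 0 and called, against 5.64% of all probe sets. PCLAF differed by 4.76 ± 0.50 (adjusted p = 8.81e-05), the fourth highest (rank 4) of 24016 probe sets, and this too includes the antral array below the limit. MCM3 differed by 2.31 ± 0.26 (adjusted p = 0.000143), RRM2 by 2.00 ± 0.46 (adjusted p = 0.0131), MCM4 by 1.96 ± 0.30 (adjusted p = 0.000966), PCNA by 1.72 ± 0.27 (adjusted p = 0.00112) and TYMS by 1.64 ± 0.27 (adjusted p = 0.00172). MCM5 (0.94 ± 0.26, adjusted p = 0.0379) and MCM6 (0.85 ± 0.21, adjusted p = 0.0198) passed as well, and MCM7 (0.15, adjusted p = 0.769) did not. Without cow D or cow F the count was 5, with MCM5, MCM6 and RRM2 lost.

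Between the granulosa populations the LH change was not shown to differ. The change in antral minus that in membrane granulosa was below 0 for all 9 genes, with a median of -0.58, and limma called 0 of them and 0% of all probe sets. At an unadjusted p under 0.05 there were 4 genes, PCLAF (-1.79, adjusted p = 0.411), MCM3 (-0.68), PCNA (-0.63) and MCM6 (-0.54), where 9.31% of all probe sets were at that level.

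Within follicles collected before LH, few differences between populations were called. Theca minus membrane granulosa gave 0 called genes before LH, at adjusted p 0.05 and at an unadjusted p of 0.05, in a comparison in which 34.3% of all probe sets were called. The median difference was -0.10. Theca lay above membrane granulosa for 1 of the 9 genes in cow D, 0 in cow F and 6 in cow G. The membrane granulosa arrays of these cows had theca marker sums of 43000, 18200 and 39100. The part of that theca signal in the difference was not tested. MCM3 (-0.40, interval -0.80 to 0.01) and RRM2 (-0.61, interval -1.32 to 0.09) were the furthest from 0, and both were called without cow C, whose arrays enter only through the shared spread (RRM2 adjusted p = 0.0023). Antral minus membrane granulosa before LH also gave 0 called genes, against 1.77% of all probe sets. MCM5 alone had an unadjusted p under 0.05 there (0.48, adjusted p = 0.211), where 17% of all probe sets were at that level. For MCM5 antral lay above membrane granulosa in all 3 cows. Theca minus antral granulosa before LH gave 2 lower genes, against 22.1% of all probe sets: MCM3 (-0.75 ± 0.19, adjusted p = 0.00754) and MCM5 (-0.70 ± 0.19, adjusted p = 0.0114), both lower in theca in 3 of 3 cows. In that comparison the median of all probe sets was itself -0.13. Without cow D neither was called, and without cow F only MCM3 was.

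After LH the same comparison looked different. Theca was higher than membrane granulosa for 7 genes, against 11.4% of all probe sets, with a median difference of 1.13 over the 9. PCLAF was higher in theca by 3.95 in cow A, 3.35 in cow B and 1.30 in cow C, a mean of 2.87 ± 0.36 (adjusted p = 0.000194). RRM2 was higher by 1.91, 1.75 and 0.28 in cows A, B and C, MCM3 by 1.46, 1.70 and 0.57, and PCNA by 1.37, 1.65 and 0.60. Cow C thus had the smallest difference in each of these genes. The median over the 9 genes was 0.33 in cow C, 1.37 in cow A and 1.49 in cow B. Among the 3 cows after LH, cow C is the one whose membrane granulosa array carried the most theca and fibroblast marker signal. The part of that signal in the difference was not tested. Without cow C the same number of genes, 7, was called and the median was 1.51, with PCLAF at 3.65, RRM2 at 1.83, TYMS at 1.29 and MCM5 at 1.03. Without cow B 4 genes were called, with MCM5, RRM2 and TYMS lost. MCM6 (0.24, adjusted p = 0.278) and MCM7 (-0.05) were not called.

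**Figure D3:**
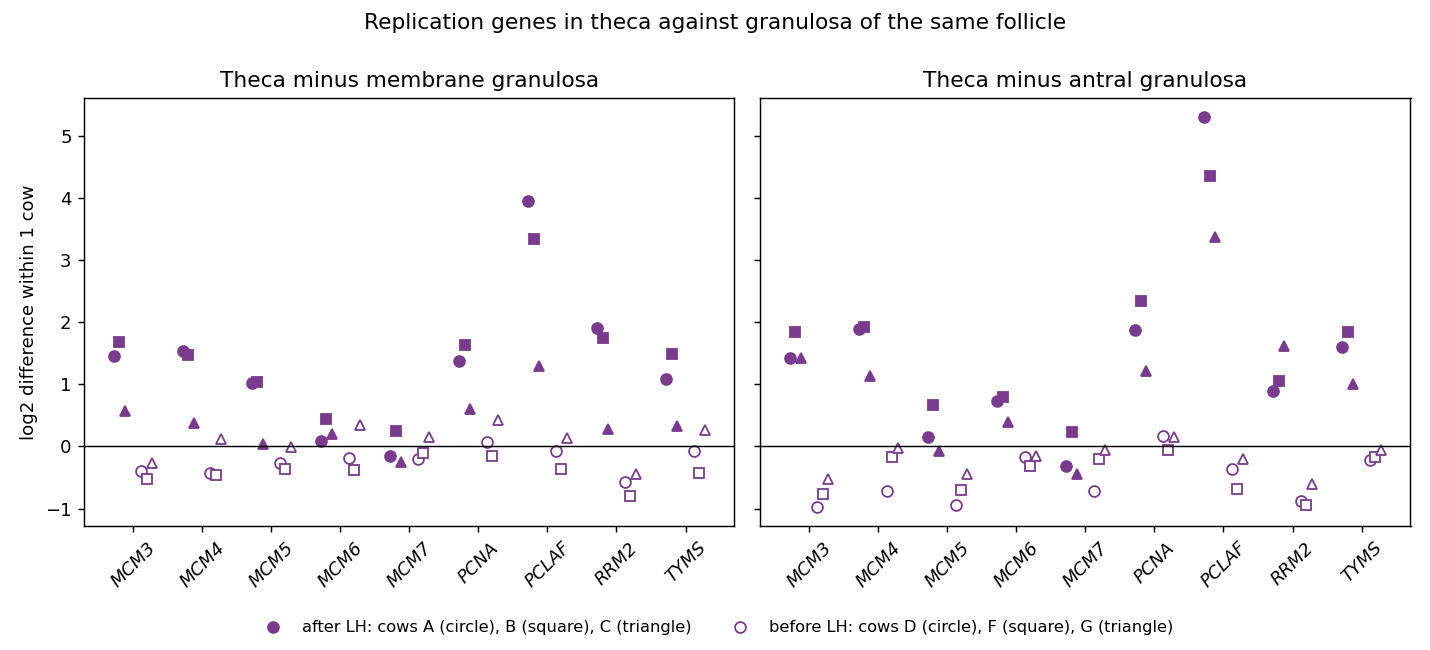
Theca minus membrane and theca minus antral granulosa within each cow, in log2, for the 9 genes; points are cows, and cows after LH stand left of cows before LH. After LH most points lie above 0, up to 5.29 for PCLAF in cow A, whose antral array lies below the limit of 4.62, and before LH they lie between -0.97 and 0.42.

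Theca against antral granulosa after LH gave 7 higher genes, against 15.7% of all probe sets, with a median of 1.49 where all probe sets had -0.11. PCLAF was higher in theca by at least 5.07 in cow A, whose antral array lay below the limit, by 4.36 in cow B and by 3.38 in cow C. As fitted the difference was 4.34 ± 0.36 (adjusted p = 6.7e-06), and with cow A at the limit it was 4.27. PCNA (1.81), MCM4 (1.65), MCM3 (1.56), TYMS (1.49), RRM2 (1.19) and MCM6 (0.64) followed, each higher in theca in 3 of 3 cows. MCM5 (0.24, adjusted p = 0.332) and MCM7 (-0.17) were not called. The 2 lists of called genes differ in that MCM5 was higher in theca than in membrane granulosa and MCM6 higher than in antral granulosa.

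Antral granulosa after LH held less PCLAF than membrane granulosa, by -1.34, -1.01 and -2.08 in cows A, B and C (-1.48 ± 0.36, adjusted p = 0.0466), and with the antral array of cow A at the limit by -1.40. At an unadjusted p under 0.05 there were 6 of the 9 genes, against 22.9% of all probe sets, and of these MCM5 was higher in antral granulosa (0.46). PCLAF was the 1 gene called lower, against 1.57% of all probe sets. The call was lost when any of cows A, B, D, F and G was left out. It was also lost without the cow as a block (adjusted p = 0.136). Without cow C PCLAF stayed and RRM2 was called higher in antral granulosa (0.86, adjusted p = 0.0356). RRM2 differed in sign between cows there, by 1.01, 0.71 and -1.35 in cows A, B and C.

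The order of the groups was alike for most genes. The group mean was highest in antral granulosa before LH for 8 genes and in theca before LH for PCNA. It was lowest in antral granulosa after LH for 6 genes, in membrane granulosa after LH for MCM5 and RRM2, and in theca after LH for MCM7. Among the 3 groups before LH, neighbours near the top of this order, no difference was called except between theca and antral granulosa for MCM3 and MCM5.

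Cows of a group also lined up across genes. In theca after LH cow B was the highest of the 3 for 9 of 9 genes and cow C the lowest for 8. In theca before LH cow G was the highest for 9 of 9 and cow F the lowest for 8. In antral granulosa before LH cow F was the lowest for all 9, and in membrane granulosa after LH cow C was the highest for 7. The median distance from the group mean was 0.36 for cow B and -0.28 for cow C in theca after LH, 0.25 for cow G and -0.24 for cow F in theca before LH, and in membrane granulosa after LH it was larger, 0.46 for cow C and -0.39 for cow A. In theca after LH cow C also had the lowest smooth muscle (11000, against 18500 and 19600) and endothelial sums (2260, against 3610 and 4030). Its theca marker sum was the highest (40600, against 29400 and 31400). In theca before LH cow F had the highest endothelial sum (4010, against 2400 and 2660) and the highest leukocyte sum (1830, against 799 and 869). The theca marker sum of cow F was the lowest there (46700, against 60100 and 56200). The part of these cell types in the order was not tested.

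As a description of likeness, each gene was set against the mean of the other 8 over the 18 arrays, which share 6 cows and 3 populations. Pearson's r was 0.988 for MCM4, 0.984 for MCM3, 0.978 for TYMS, 0.964 for PCLAF, 0.947 for PCNA, 0.901 for MCM6, 0.88 for RRM2 and 0.846 for MCM5. MCM7 stood apart at 0.27. The mean profile of the 9 genes, each centred on its own mean, lay between -1.29 and -0.47 in membrane granulosa after LH, against 0.57 to 0.69 before, and between -1.43 and -1.07 in antral granulosa after LH, against 0.62 to 0.99 before. In theca it lay between -0.09 and 0.60 after LH, against 0.18 to 0.69 before.

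The 10 genes outside the set whose levels followed this profile most closely over the 18 arrays were SHCBP1 (r = 0.99), NCAPG (0.99), CHEK1 (0.988), STIL (0.987), CENPP (0.986), CKAP2 (0.985), GMNN (0.98), SPDL1 (0.98), CDK1 (0.979) and PIMREG (0.979). NCAPG is a condensin subunit, CHEK1 the checkpoint kinase of stalled forks, CDK1 the kinase of mitotic entry and GMNN the inhibitor of origin licensing. SHCBP1, at the top, changed by -3.20 in membrane granulosa, -4.14 in antral granulosa and -0.57 in theca (adjusted p = 0.602 there), with 2 and 1 of 3 granulosa arrays after LH above the limit. CDK1 changed by -2.67, -3.17 and -0.50 (adjusted p = 0.494 in theca). These genes were picked by their likeness over the arrays, so their changes are a description. A second STIL probe set, above the limit on 11 arrays, was not called (-0.16 in antral granulosa), and it lay below the limit on all 3 membrane granulosa arrays after LH.

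**Figure D4:**
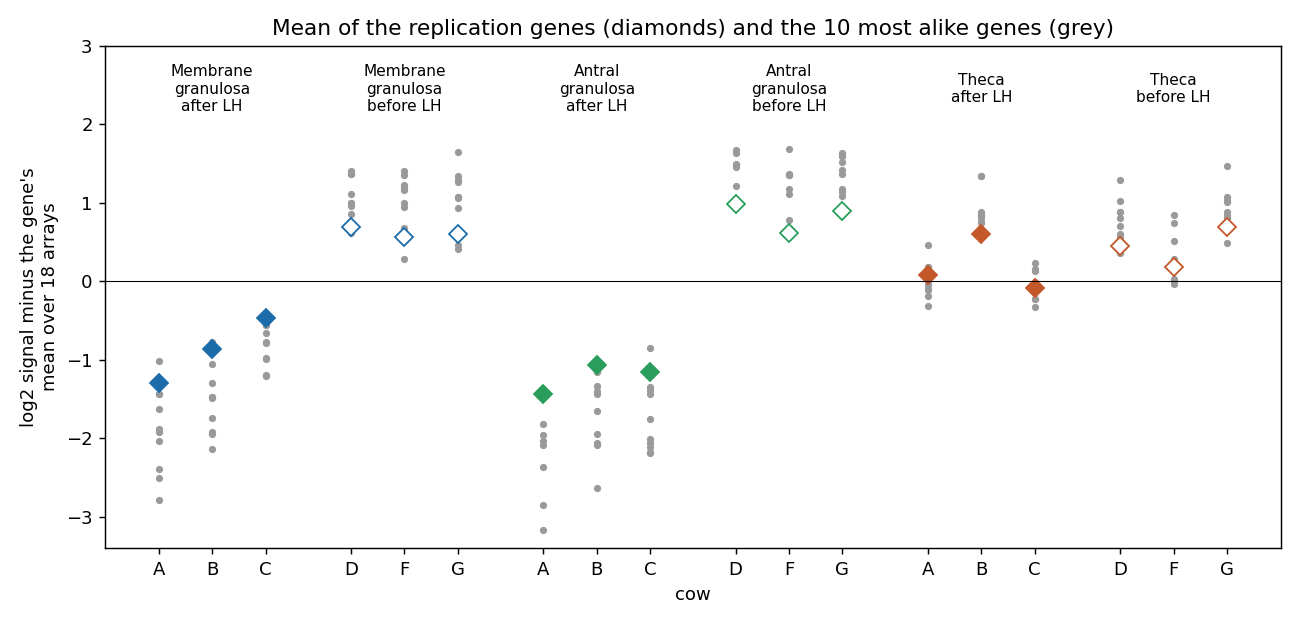
Mean of the 9 genes' log2 levels on each array, each gene centred on its own mean over 18 arrays, with the 10 genes of most similar profile in grey; groups after LH stand left of those before LH within each population. Granulosa arrays after LH lie at or below -0.47 and those before LH at or above 0.57, while theca arrays lie between -0.09 and 0.69 at both times.

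The wider replication machinery was read from 91 genes listed by role, of which 66 were measured and none is among the 9. Of these, 41 fell and 3 rose in membrane granulosa after LH (median -0.72), 44 fell and 3 rose in antral granulosa (median -1.04), and 37 fell in both. Of all probe sets 10.9% fell and 10% rose in membrane granulosa, and 12.2% fell and 10.3% rose in antral granulosa, and the counts of each role below stand against these shares. Without cow C 40 fell and 4 rose in membrane granulosa, and the 14 changes named there by rule all remained called in their direction. In theca 3 fell and 0 rose (median -0.19): ORC2 (-0.81, adjusted p = 0.00619) and ORC3 (-0.71, adjusted p = 0.0251) of the origin recognition complex, and POLD2 (-0.99, adjusted p = 0.0298), a subunit of polymerase delta. Of all probe sets 2.12% fell and 1.79% rose in theca, so 3 of 66 called is near the background. Called or not, 49 of the 66 changes in theca were below 0, where the median of all probe sets was 0. In membrane granulosa 54 were below 0 and in antral granulosa 56. The count of called genes in theca was 0 without cow A and 1 without cow G, and 0 when only the theca arrays were fitted. A second ORC2 probe set was below the limit throughout.

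Of 10 genes of origin licensing, 8 fell and 1 rose in membrane and 6 fell and 1 rose in antral granulosa. In membrane granulosa the count of falls was 4 without cow A. CDC6, which loads the helicase, averaged 5.11 in membrane granulosa after LH, against 6.22 before (-1.11 ± 0.15, adjusted p = 7.64e-05), and a second CDC6 probe set, below the limit on all 3 arrays after LH, was at least 3.47-fold lower. ORC3 averaged 7.34 in membrane granulosa after LH, against 8.39 before (-1.05 ± 0.17, adjusted p = 0.000253). GMNN averaged 6.98 in antral granulosa after LH, against 9.46 before (-2.48 ± 0.27, adjusted p = 4.58e-06). Both the loader and the inhibitor of loading thus fell.

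Of 6 genes that fire origins or join the helicase, 3 fell in each granulosa population. DBF4, the regulatory subunit of the CDC7 kinase, averaged 5.81 in membrane granulosa after LH, against 7.49 before (-1.69 ± 0.30, adjusted p = 0.00064), and 5.75 in antral granulosa after LH, against 7.75 before. CDC45, a partner of the MCM ring in the active helicase, averaged 4.50 in membrane granulosa after LH, against 5.58 before (-1.08 ± 0.24, adjusted p = 0.00339). Only 1 of the 3 arrays after LH lay above the limit, and with the others set at it the change is -0.91. RECQL4 fell by 0.56 ± 0.13 in antral granulosa (adjusted p = 0.00499), though a second probe set for it was not called (-0.23, adjusted p = 0.271).

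Of 11 polymerase and primase genes, 7 fell in membrane and 9 in antral granulosa. PRIM1, the catalytic primase subunit, lay below the limit on all membrane granulosa arrays after LH (3.66 to 3.80). It averaged 5.27 before LH, so its difference is at least 0.64. The adjusted p of 2.08e-05 belongs to the change as fitted, -1.55 ± 0.19, which uses the arrays below the limit. POLA1 of polymerase alpha averaged 7.56 in membrane granulosa after LH, against 8.34 before (-0.78 ± 0.12, adjusted p = 0.00028), and its second probe set gave -0.33 (adjusted p = 0.325). POLE2 averaged 4.66 in antral granulosa after LH, against 6.29 before (-1.63 ± 0.23, adjusted p = 8.52e-05), with 1 of 3 arrays after LH above the limit and -1.58 when the others are set at it. POLD3 fell by 1.11 ± 0.14 in antral granulosa (adjusted p = 1.78e-05), while 2 other POLD3 probe sets were not called there (-0.49 and -0.26).

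Of 13 genes for clamp loading, the RPA complex and Okazaki fragments, 8 fell in membrane and 11 in antral granulosa. RPA3, a subunit of the single-strand binding complex, ranged from 10.31 to 10.83 in membrane granulosa after LH, against 11.95 to 12.31 before (-1.53 ± 0.15, adjusted p = 3.19e-06). In antral granulosa it ranged from 10.29 to 10.53 after LH, against 12.34 to 12.55 before (-2.07 ± 0.15, adjusted p = 1.32e-07). RFC4, a subunit of the loader that opens PCNA, changed by -1.55 ± 0.19 in membrane and -2.27 ± 0.19 in antral granulosa (adjusted p = 2.48e-05 and 4.24e-07).

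Of 7 genes of nucleotide supply, 4 fell in membrane and 5 in antral granulosa. TK1 and DUT had the smallest adjusted p of all the lists in both. TK1, the thymidine kinase, ranged from 6.47 to 6.83 in membrane granulosa after LH, against 9.70 to 10.56 before (-3.38 ± 0.20, adjusted p = 2.29e-08), and from 6.12 to 6.52 in antral granulosa after LH, against 10.22 to 10.41 before (-4.01 ± 0.20, adjusted p = 2.81e-09). In theca TK1 ranged from 7.32 to 7.85 after LH, against 7.94 to 8.13 before, and the change of -0.55 was not called (adjusted p = 0.171). DUT, which clears dUTP, changed by -2.42 ± 0.19 in membrane, -3.51 ± 0.19 in antral granulosa and -0.67 ± 0.19 in theca (adjusted p = 3.89e-07, 6.28e-09 and 0.071). Its second probe set passed in theca (-0.71, adjusted p = 0.0447).

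Of 8 genes of replicated chromatin and fork protection, 5 fell in membrane and 6 in antral granulosa, and without cow C 4 fell and 1 rose in membrane granulosa. The histone chaperone ASF1B averaged 5.42 in membrane granulosa after LH, against 7.25 before (-1.83 ± 0.27, adjusted p = 0.000158). CHAF1A, which deposits histones behind the fork, averaged 6.08 in antral granulosa after LH, against 7.84 before (-1.77 ± 0.21, adjusted p = 1.48e-05). NASP of the same list changed by -0.97 ± 0.16 in membrane and -1.24 ± 0.16 in antral granulosa (adjusted p = 0.000343 and 2.93e-05). Its second probe set gave -1.02 and -1.67.

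Among 11 genes of E2F and RB control 6 fell and 2 rose in membrane granulosa, and 4 fell and 2 rose in antral granulosa. CCNE2, cyclin E2, averaged 5.73 in membrane granulosa after LH, against 8.29 before (-2.56 ± 0.33, adjusted p = 3.65e-05), and 4.84 in antral granulosa after LH, against 8.15 before (-3.31 ± 0.33, adjusted p = 2.13e-06). In antral granulosa 2 of 3 arrays after LH lay above the limit, and with the other set at it the change is -3.20. TFDP2, a partner of E2F factors, averaged 6.17 in membrane granulosa after LH, against 5.37 before (0.80 ± 0.12, adjusted p = 0.000172), and 6.46 in antral granulosa after LH, against 5.30 before (1.16 ± 0.12, adjusted p = 3.47e-06). The other 2 genes that rose in both granulosa populations were named after their values were seen. They are MCMBP, which binds MCM proteins (1.94 in membrane, adjusted p = 0.000649, and 1.87 in antral granulosa, adjusted p = 0.000798), and RBL2, an RB family repressor (0.84 and 0.83). MCMBP changed by 0.82 in theca (adjusted p = 0.252).

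The LH change in theca minus that in membrane granulosa was called above 0 for 24 of the 66 genes and below 0 for 1, TFDP2 (-0.73). Against antral granulosa it was above 0 for 37 and below 0 for 1, TFDP2 again (-1.09). Of all probe sets 4.56% were called above and 4.57% below 0 against membrane granulosa, and 5.64% above and 5.6% below 0 against antral granulosa. The first count fell with single cows left out, to 8 without cow B, 9 without cow A, 11 without cow F and 13 without cow G, and it was 27 above and 2 below 0 without cow C. Without the cow as a block it was 10, and the second count was 27. The change in antral minus that in membrane granulosa was called for 0 of the 66.

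**Figure D5:**
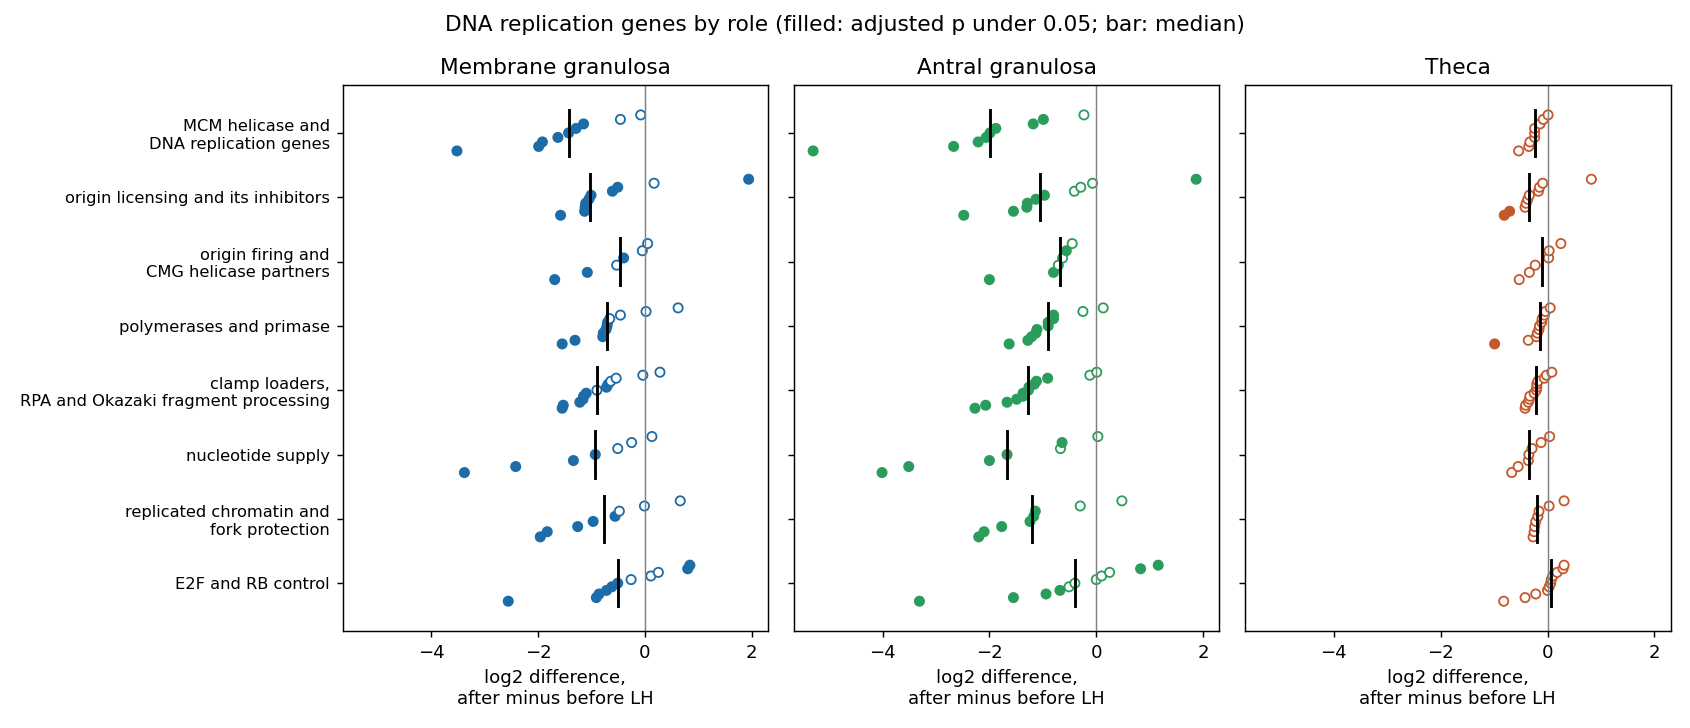
LH change, log2 after minus before, of the 9 genes (top row) and of the 66 other measured replication genes by role, in membrane granulosa, antral granulosa and theca; each point is a gene, the bar is the median of a row, and filled points have an adjusted p under 0.05. Of the 66 genes 41 in membrane and 44 in antral granulosa are called lower, against 3 in theca, and the 3 called higher in each granulosa population are MCMBP, RBL2 and TFDP2.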

How the data were processed

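Each of the 18 arrays has deposited log2 signals, made by the authors with RMA in Partek 6.5 per the submitters' processing notes, with settings not given. Trizol extraction on phase lock gel and biotin labelling by a 3' IVT kit are recorded per the labels' protocols. Values ran from 2.29 to 14.9, array medians from 5.74 to 5.86, arrays of a group correlated at 0.97 to 0.99, and no 2 arrays were identical. The number of arrays limits the precision.

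The 112 control probe sets were left out and 24016 tested, 13292 of them with 1 symbol in the platform's annotation, which can be old. Fits used limma 3.58.1 in R 4.3.3 (lmFit, eBayes), checked on simulated data, with Benjamini-Hochberg adjustment and a threshold of 0.05. For LH effects the simulated arrays of a cow were independent, so that check could not show how deviations shared by a cow bear on the fit. LH effects used 6 group means without a block, and contrasts of populations and differences in LH effect used the cow as a fixed block. Arrays of the same cow, paired by its letter in the labels, deviated together: 17 of 18 pairs had a correlation over 0.1 (-0.02 to 0.69). Equal replicate numbers before and after LH name different cows (9 pairs, -0.17 to 0.23, 2 over 0.1). The files hold no detection calls, hence the limit of 4.62, the 33.3% point of probe set means.

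The members, role lists and markers were chosen with earlier results of these data known. All members are named, and other replication genes by the 2 smallest adjusted p per role list and LH contrast. Of the genes so picked in theca but not called there, theca values are given only for TK1 and DUT. A likeness rule names 10 genes. Probe set and promoter sequences were not used here. Alternatives were quantile normalization, centring, leaving out the dimmest 33.3% of probe sets, 1 or the mean of a gene's probe sets, trend and robust eBayes, other blocks, fitting the compared arrays alone, requiring 2-fold, and omitting 1 cow at a time. Figures used matplotlib 3.10.9, numpy 2.4.6 and pandas 2.3.3 in Python 3.11.15.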

Additional observations from a re-analysis of the deposited data

Results flagged for a closer look

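The LH effect differed between theca and granulosa by a test of the difference itself, with the cow as a block and limma's adjusted p under 0.05. The cows after LH are not those before LH. The effect in theca minus that in membrane granulosa was 2.97 for PCLAF, 1.92 for RRM2, 1.64 for MCM3, 1.39 for MCM4, 1.10 for PCNA, 1.05 for TYMS and 0.92 for MCM5. The effect in theca minus that in antral granulosa was 4.76 for PCLAF, 2.31 for MCM3, 2.00 for RRM2, 1.96 for MCM4, 1.72 for PCNA, 1.64 for TYMS, 0.94 for MCM5 and 0.85 for MCM6. MCM7 is the 1 gene of the 9 absent from both.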

How the results depend on the processing

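The counts of genes called for the LH effects stayed within 1.5 times under every alternative: 7 to 8 in membrane granulosa, 7 to 8 in antral granulosa and 0 in theca. With replicate number as a replicate block the LH counts were 7, 8 and 0. Over all contrasts, 47 called gene values were recomputed 752 times, of which 678 kept direction and call, 74 lost the call and 0 reversed. Among 61 uncalled values, 976 recomputations gave 29 changes of sign and 11 new calls. Without the cow as a replicate block, the LH difference between theca and membrane granulosa had 4 called genes, not 7, and antral against membrane granulosa after LH had 0, not 1. With only the arrays compared, those counts were 3 and 2, and theca against membrane granulosa before LH had 1, not 0. Antral against membrane granulosa after LH also had 0 after quantile normalization, with trend and robust eBayes, or with the cow as a random block. Theca against antral granulosa before LH had 4 with centring, 1 with the mean over probe sets and 0 at a 2-fold minimum, not 2. Leaving out a cow gave 0 to 2 for theca against membrane granulosa before LH, 0 to 3 for theca against antral granulosa before LH, 4 to 7 for theca against membrane granulosa after LH and 0 to 2 for antral against membrane granulosa after LH. It gave 2 to 7 for the LH difference of theca from membrane and 5 to 8 for that from antral granulosa. Leaving out a cow leaves fewer arrays, and fitting only the arrays compared does too. The cause of the other moves was not tested. The limit on low signals bears, among others, on PCLAF on 1 array, on the second probe sets of MCM3, TYMS and CDC6, and on PRIM1, CDC45, POLE2, CCNE2 and SHCBP1 after LH.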
